A study of Mus musculus with 8 samples.

Results

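The genes described here encode the machinery that carries new proteins into the endoplasmic reticulum (ER), processes them and folds them. A list of 49 gene symbols defined the set, and each symbol was matched through GENCODE M21 (GRCm38) to 1 Ensembl identifier in the table of counts. All 49 were found among its 51826 identifiers, and all 49 were among the 16484 genes with enough counts to be tested. The study asked how oral all-trans retinoic acid (tRA), the active form of vitamin A, acts at different stages of lupus-like disease in mice, and the RNA sequencing looked at the spleen before any disease was induced. Total splenocytes came from female Balb/c mice that were 3 months old. The tRA group (4 mice) had received tRA by mouth every day since weaning at 1 mg/kg body weight, and the control group (4 mice) had received the canola oil vehicle alone on the same schedule. No mouse of either group had received pristane, the agent that induces the disease. The sample labels give the dose of 1 mg/kg of tRA for the controls as well. This conflicts with the vehicle stated in the paper's figure legend for these mice, so the groups rest on the labels' names for them. Spleens were not sorted, and each library is 1 mouse. Counts on genes totaled 37539631, 31833853, 35924683 and 30919272 in control 1 to 4 and 33755595, 31810417, 35165876 and 32042754 in tRA 1 to 4.

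A protein bound for the cell surface, for secretion or for the secretory organelles carries a signal sequence that the signal recognition particle reads as it leaves the ribosome. The Sec61 channel then passes the chain into the ER, where signal peptidase removes the signal, oligosaccharyltransferase adds sugar chains, and chaperones and disulfide isomerases fold the product, while chains that fail to fold are returned to the cytosol for degradation. In the spleen this machinery serves all cells, and it is most abundant in plasma cells, which secrete antibody and build it up through the unfolded protein response.

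Levels are given as CPM, counts per 1000000 counts of the library after scaling by the TMM method, and, where genes are compared with each other, as CPM per kilobase of merged exons. The libraries came from a spleen population rich in lymphocytes. The B cell marker Cd79a lay between 1179 and 1539.9 CPM in the 8 mice, with a log2 fold change of -0.13 (Ms4a1 and Fcer2a, also of B cells, had 0.20 and 0.15), and the T cell marker Cd3e between 145 and 216 CPM. With 1 mouse left out, Cd79a ran from -0.18 to -0.084, Ms4a1 from 0.10 to 0.32 and Fcer2a from 0.10 to 0.23. Because the tissue is a mixture, fewer cells of a type and less RNA per cell cannot be told apart in any value below. P values reflect the spread between the mice of a group.

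Levels of the 49 genes spanned a wide range. Per kilobase, as means of all 8 mice, 5 genes lay above 100, 37 between 10 and 100, and 7 below 10, with a median of 25.3. The chaperones Hspa5 (295), Calr (269) and Hsp90b1 (178) headed the order, followed by the disulfide isomerases Pdia3 (128) and P4hb (106). At the other end stood the stress sensor Ern1 (4.19) and the degradation factor Derl2 (5.49). Hspa5 alone made up between 13.8% and 19% of the counts on the 49 genes in a mouse. Together the 49 genes took 0.747%, 0.74%, 0.805% and 0.783% of the counts in control 1 to 4 and 0.753%, 0.784%, 0.76% and 0.69% in tRA 1 to 4. The share was lowest in tRA 4 and highest in control 3, and the groups overlapped. The genes varied little between mice of a group: their median biological coefficient of variation was 0.0991 against 0.14 over all genes tested, and 44 of the 49 lay below the latter. Other genes of the secretory pathway, described below, had a median of 0.0985. Genes were not matched by level in these comparisons, so the part of level in the low variation was not tested. The least variable of the 49 was Dnajc3 (0.0755) and the most variable Dnajb9 (0.287).

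Between tRA and control, the differences were small and mostly downward, and no gene of the set passed the threshold. By the quasi-likelihood test of edgeR, with p adjusted by Benjamini and Hochberg's method over all genes tested, 0 of the 49 had an FDR under 0.1, against 0 (0%) of the 16484 genes, and the lowest FDR among the 49 was 0.757 (from 0.193 without tRA 1 to 0.999 without tRA 4 over the alternatives tried). DESeq2 called 0 of the 49 (lowest FDR 0.202), while it called 44 of the 12964 genes to which it gave an adjusted p, or 0.339%. At an unadjusted p under 0.05 in edgeR, 5 of the 49 genes (10.2%) were lower with tRA, where 3.55% of all genes tested were, and 0 were higher, where 2.94% of all genes were. The 5 were Sec61b, Sec61g, Srp9, P4hb and Derl3. The count depended on single mice: it was 11 without tRA 1 and 1, Sec61b, without tRA 4, and it was 3 without control 1, without control 3, without tRA 2 or without tRA 3. Of the 49 log2 fold changes (tRA over control), 34 were negative and 15 positive, or 69.4% negative against 49.7% of all genes tested (31 negative, or 63.3% against 42.3%, when scaled by library size alone). Their median was -0.071, beside 0.0014 for all genes. The range ran from -0.41 for Sec61b to 0.12 for Sec62. Most of the values depended on single mice: in 40 of the 49 genes, leaving out 1 of the 8 mice moved the log2 fold change by over 1.5 times or turned its sign, and in 14 of them it turned the sign. In TMM-scaled CPM, only 1 gene, Ddost, had all of its tRA mice below all of its controls (1.63% of all genes tested). Only 1, Srp72, had all of them above (1.91% of all genes tested).

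**Figure D1:**
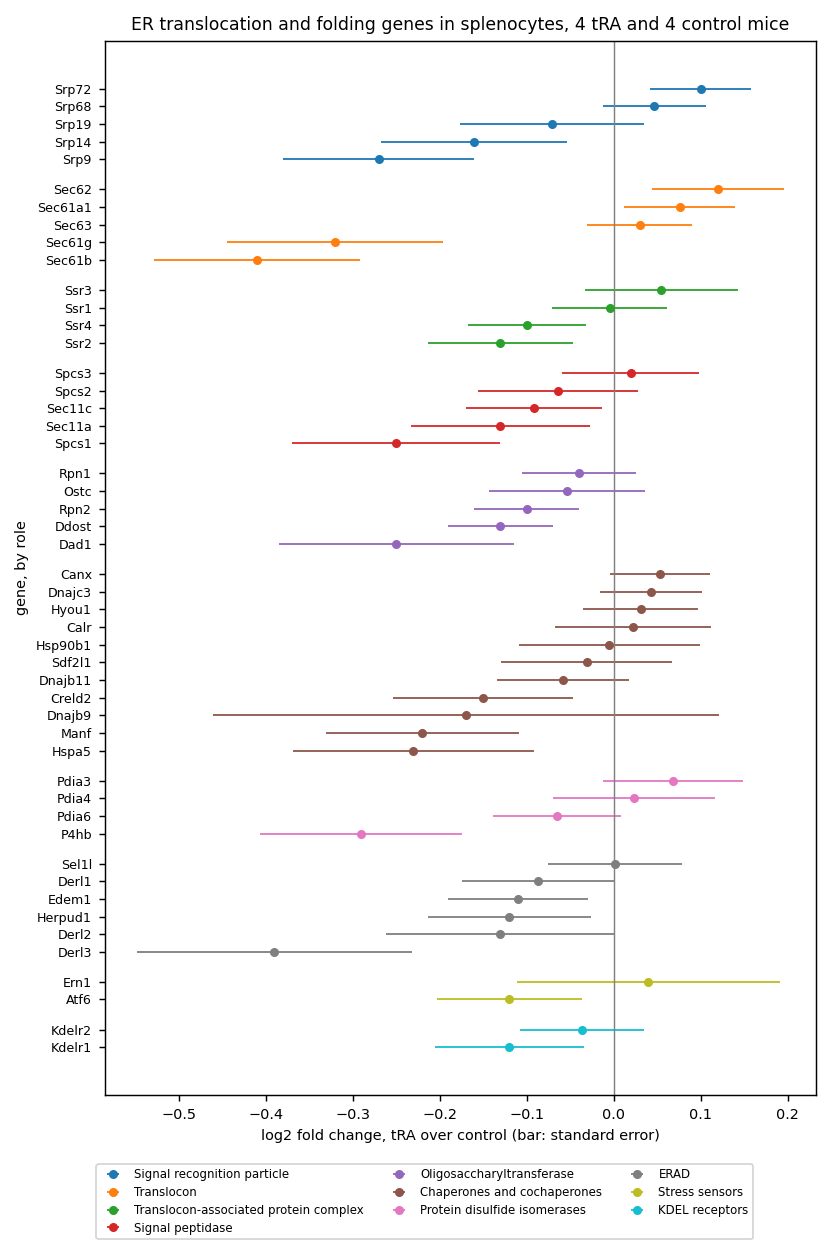
Log2 fold change of each of the 49 genes, tRA over control (horizontal axis; bars are standard errors from edgeR, 4 mice a group), by role. Points lie between -0.41 (Sec61b) and 0.12 (Sec62), with 34 left of 0.

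The 4 tRA mice did not contribute alike. In tRA 4, 26 of the 49 genes lay below all 4 control mice and 3 above them, where 23.8% of all genes tested lay below and 23.6% above. The counts for tRA 3 were 18 below and 10 above (23.1% and 23.8% of all genes). In tRA 2 they were 11 below and 7 above (17.2% and 17.4% of all genes), and in tRA 1 10 below and 8 above (18.3% and 17.7%). Relative to the control mean, the median log2 deviation of the 49 genes was 0.012, -0.041, -0.081 and -0.15 in tRA 1 to 4. The control mice themselves ranged from -0.081 in control 2 to 0.11 in control 3.

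The signal recognition particle, which halts translation and docks the ribosome at the ER, was represented by 5 protein subunits. Their summed level was 401, 366, 411 and 370.0 CPM in control 1 to 4 and 403, 377, 378 and 365 CPM in tRA 1 to 4, and the groups overlapped. The values of the subunits had both signs. None passed the threshold, and differences between them were not tested. Srp9 and Srp14 form the pair that holds the Alu domain of the particle's RNA, and Srp72 binds the RNA together with Srp68 at the other end. Srp9 (ENSMUSG00000026511, chromosome 1, 182124737 to 182132407) stood at 62, 55.9, 65.6 and 54.7 CPM in control 1 to 4 and at 61.3, 46.2, 44 and 46.5 CPM in tRA 1 to 4. In 3 of the 4 tRA mice it lay below every control, while tRA 1 lay within their range. Its log2 fold change was -0.27 (SE 0.11), with an unadjusted p of 0.0335 and an FDR of 0.757 in edgeR. Srp14, the partner of Srp9 and the most abundant of the 5 per kilobase (47.8), was measured at 65.1, 54, 68.2 and 54.1 CPM in the controls and 61.6, 56.8, 49.9 and 47.5 CPM in the tRA mice, a log2 fold change of -0.16 (SE 0.107; -0.10 without control 3). Of Srp72 (ENSMUSG00000036323, chromosome 5, 76974683 to 76999937), the controls had 134, 131, 132 and 130.3 CPM and the tRA mice 137, 134, 151 and 144 CPM. Here the groups did not overlap, although tRA 2 and control 1 both stood near 134 CPM and the log2 fold change was only 0.10 (SE 0.0585; edgeR p 0.104, FDR 0.787). The remaining Srp19 and Srp68 had log2 fold changes of -0.071 and 0.047.

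The translocon is the channel itself, and the values of its 3 Sec61 subunits did not share a sign. No subunit passed the threshold, and the difference between them was not tested. Sec61a1, the pore-forming subunit, had a log2 fold change of 0.076 (SE 0.0637). The 2 small subunits, Sec61b and Sec61g, were lower at an unadjusted p under 0.05 in edgeR. Sec61b (ENSMUSG00000053317, chromosome 4, 47474658 to 47483242) was counted at 36, 31.1, 39.7 and 30.5 CPM in control 1 to 4 and at 31.2, 24.7, 22.6 and 24.7 CPM in tRA 1 to 4. Those of tRA 2, 3 and 4 lay below every control, and that of tRA 1 was above the lowest 2. The means were 34.3 ± 4.36 and 25.8 ± 3.72 CPM (SD, n = 4 each). The log2 fold change of -0.41 (SE 0.118) had the lowest unadjusted p of the 49 genes, 0.00515, and an FDR of 0.757 in edgeR. For Sec61g (ENSMUSG00000078974, chromosome 11, 16500530 to 16508484) the control mice had 18.9, 17, 19.7 and 14.1 CPM and the tRA mice 16.1, 13.9, 12.2 and 13.8 CPM. Again tRA 2, 3 and 4 lay below the lowest control, control 4. Its log2 fold change was -0.32 (SE 0.124; edgeR p 0.0277, FDR 0.757). Sec62 and Sec63 assist chains that enter after translation. Over all mice Sec62 was the most abundant translocon gene per kilobase (27.9), while in the controls Sec61b (27) was slightly above Sec62 (26.7). Sec62 stood at 125, 104, 126 and 108 CPM in the controls and at 126, 131, 123 and 124 CPM in the tRA mice. Control 2 and control 4 were low, and the other 6 mice were alike, which gave the highest log2 fold change of the 49 genes, 0.12 (SE 0.076; edgeR p 0.134, FDR 0.793). It was 0.074 without control 2. Sec63 had one of 0.03.

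Among the 4 subunits of the translocon-associated protein complex, which sits beside the channel, log2 fold changes ran from -0.13 (Ssr2) to 0.055 (Ssr3). Ssr3, the most abundant per kilobase (40.2), was measured at 157, 164, 187 and 149 CPM in the controls and 190.0, 175, 154 and 164 CPM in the tRA mice, and the groups overlapped widely. Its value went to 0.0004 without tRA 1 and to 0.12 without control 3. Signal peptidase, which cuts the signal sequence off the entering chain, had 4 of 5 subunits with a negative value, from -0.25 for Spcs1 to 0.02 for Spcs3. Over all mice Spcs3 was the most abundant per kilobase (26), while in the controls Spcs1 (27.4) and Spcs2 (25.9) lay above Spcs3 (25.8). Spcs3 stood at 91.6, 86.1, 96.7 and 83.2 CPM in the controls and at 98.3, 96, 81.3 and 87.1 CPM in the tRA mice. The sign of its value was not steady and turned to -0.021 without tRA 1. Sec11c, a catalytic subunit, had 144, 137, 161 and 136 CPM with vehicle and 145, 139.9, 136 and 121 CPM with tRA. The mouse tRA 4 was the lowest of the 8, and the log2 fold change was -0.091 (SE 0.0782; -0.041 without tRA 4 and -0.042 without control 3). None of these 9 genes had an unadjusted p under 0.05, and the lowest was 0.0666 (edgeR FDR 0.777), for Spcs1.

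Of the oligosaccharyltransferase, the enzyme that transfers sugar chains to asparagines, the set holds 5 genes, and all 5 had negative values, from -0.25 for Dad1 to -0.04 for Rpn1. Of these, Ostc turned from -0.053 to 0.025 without control 3. Dad1 ran from -0.38 (without tRA 1) to -0.14 (without tRA 3) and Rpn1 from -0.088 (without tRA 3) to -0.0092 (without tRA 1). The 5 set genes together summed to 542, 521, 540.3 and 542 CPM in the controls and 497, 511, 507 and 479 CPM in the tRA mice. In these TMM-scaled sums each tRA mouse lay below the lowest control. The TMM factors were 0.9641 for control 3 and 1.05 for tRA 3. With library size alone the sum of tRA 3 lay above that of control 3, so the groups overlapped. The median of the 5 was then -0.07, beside 0.031 for all genes. Ddost (ENSMUSG00000028757, chromosome 4, 138304730 to 138312628), the most abundant of the 5 per kilobase (52.8), had 113, 119.8, 115 and 119.8 CPM in the controls and 103, 111, 112 and 102 CPM in the tRA mice. Its groups did not overlap, but control 1 and tRA 3 were almost level. With library size alone its level in tRA 3 lay above those in control 1 and control 3, so the groups overlapped. The log2 fold change was -0.13 (SE 0.06; edgeR p 0.057, FDR 0.762), and -0.10 with library size alone. Dad1 was at 61.4, 46.8 and 55.9 CPM in tRA 2, 3 and 4, below the lowest control at 63.4 CPM, and at 75.6 CPM in tRA 1. Among subunits outside the set, the catalytic Stt3a and Stt3b and Magt1 had 0.017, 0.0086 and 0.016. Each turned negative when 1 mouse was left out (-0.02, -0.079 and -0.014 at the lowest). Krtcap2 (-0.24) and Ost4 (-0.20) were lower at an unadjusted p under 0.05, and Tmem258 and Tusc3 had -0.064 and -0.015. Without tRA 3, Tmem258 had -0.02 and Tusc3 0.026.

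**Figure D2:**
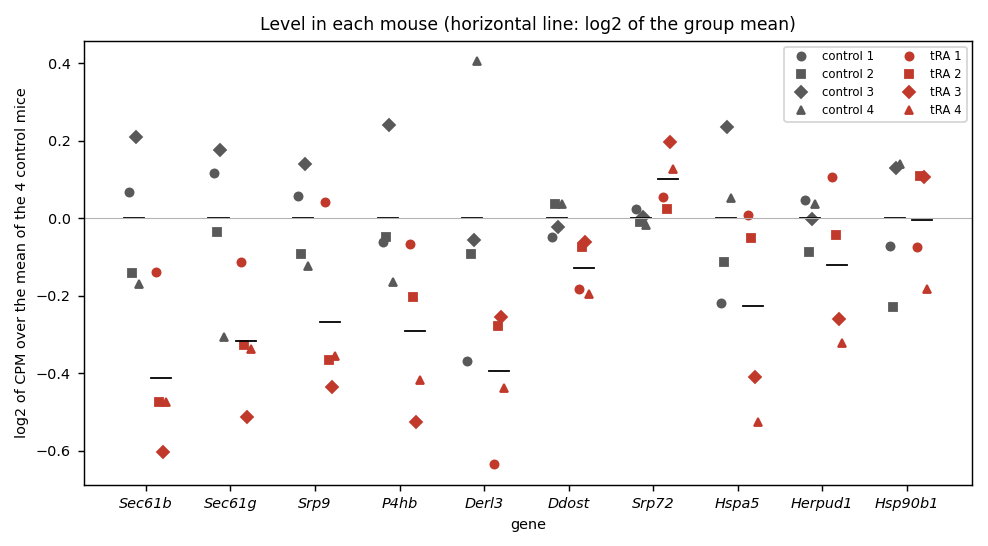
Level of 10 of the 49 genes in each mouse, as log2 of CPM over the mean of the 4 control mice (vertical axis; grey, control; red, tRA; lines, log2 of the group means). For Ddost and Srp72 the groups do not overlap; Hspa5 and P4hb are lowest in tRA 3 and tRA 4.

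The chaperones and their helpers were the largest role group, with 7 of 11 genes negative and a median log2 fold change of -0.031 (0.00013 when scaled by library size alone). Hspa5 (BiP; ENSMUSG00000026864, chromosome 2, 34771970 to 34777547) is the ER's Hsp70, which pulls chains in, holds them while they fold and keeps the stress sensors silent. It was measured at 1158, 1247, 1587 and 1398 CPM in control 1 to 4 and at 1355, 1300.3, 1014 and 935 CPM in tRA 1 to 4. The mice tRA 3 and tRA 4 lay below every control, whereas tRA 1 and tRA 2 lay in the middle of the control range. Means were 1347 ± 188 and 1151 ± 208 CPM (SD, n = 4 each), and the log2 fold change was -0.23 (SE 0.139; edgeR p 0.131, FDR 0.793). That value was -0.14 without tRA 4 and -0.15 without control 3. Hsp90b1 (GRP94), the ER's Hsp90, which folds integrins and Toll-like receptors, showed no such pattern. It had 684, 613, 786 and 791 CPM in the controls and 682, 775, 774 and 633 CPM in the tRA mice, a log2 fold change of -0.005 (SE 0.104), and the lectin chaperones Calr and Canx had 0.022 and 0.053. So the abundant chaperones of the ER did not go together in tRA 3: Hsp90b1, Calr, Canx and the isomerase Pdia3 were above the control mean there, and Hspa5 was below it. The isomerase P4hb, at 231 CPM in tRA 3, was below every control as Hspa5 was. In tRA 4, Hsp90b1, Calr and Pdia3 were below the control mean together with Hspa5, and Canx was above it.

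Values of the cochaperones of Hspa5 varied too, and differences between them were not tested. Dnajb9 (ERdj4) was the most variable gene of the set, with 159, 144, 139.8 and 107 CPM in the controls and 184, 154, 57.5 and 91.9 CPM in the tRA mice. It was highest of all 8 mice in tRA 1 and lowest in tRA 3. Dnajb11, Dnajc3 and the nucleotide exchange factor Hyou1 had log2 fold changes between -0.058 and 0.043. Sdf2l1, a partner of Dnajb11, varied little, at 16.2, 19, 17.5 and 18.2 CPM with vehicle and 15.1, 18.8, 18.8 and 16.6 CPM with tRA (log2 fold change -0.031, SE 0.0983). Creld2, a secreted stress product, had 44.9, 37.7, 47.8 and 46.2 CPM with vehicle and 42.2, 41.8, 42.4 and 32.9 CPM with tRA, where tRA 4 stood below all other mice (log2 fold change -0.15, SE 0.103, and -0.067 without tRA 4). Manf, an ER-resident factor that binds Hspa5, had a log2 fold change of -0.22 (SE 0.111; edgeR p 0.0749, FDR 0.778; -0.14 without tRA 4).

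Of the 4 disulfide isomerases, which make and reshuffle the bonds between cysteines, only P4hb was lower at an unadjusted p under 0.05. P4hb (ENSMUSG00000025130, chromosome 11, 120560298 to 120573253) encodes the classical enzyme of the family and stood at 319, 322, 393 and 297 CPM in control 1 to 4 and at 318, 289, 231 and 249 CPM in tRA 1 to 4. All but tRA 1 lay below the lowest control. Means were 333 ± 41.4 and 272 ± 39.3 CPM (SD, n = 4 each), with a log2 fold change of -0.29 (SE 0.116; edgeR p 0.029, FDR 0.757). Pdia3, the isomerase that works with calreticulin on glycoproteins, had 378, 369, 423 and 394 CPM with vehicle and 386, 440.2, 439.7 and 373 CPM with tRA, a log2 fold change of 0.068 (SE 0.0804). Pdia4 and Pdia6 had 0.023 and -0.065.

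The genes of ER-associated degradation (ERAD), which recognizes misfolded chains and passes them back to the cytosol, were negative in 5 of 6 cases, with a median of -0.12. Derl3 (ENSMUSG00000009092, chromosome 10, 75893413 to 75895941), a derlin that secretory cells induce under ER stress, had 12.4, 15, 15.4 and 21.2 CPM in control 1 to 4 and 10.3, 13.2, 13.4 and 11.8 CPM in tRA 1 to 4. Control 4 stood well above the other controls, and control 1 lay within the range of the tRA mice. The log2 fold change was -0.39 (SE 0.158; edgeR p 0.0319, FDR 0.757), and it ranged from -0.50 (without control 1) to -0.23 (without control 4) as each mouse was left out. Its relatives Derl1 and Derl2 had -0.087 and -0.13. Herpud1, which gathers the degradation complex and was the most abundant of the 6 per kilobase (58.2), had 146, 133, 141 and 145 CPM with vehicle and 152, 137, 118 and 113 CPM with tRA. Like Hspa5 it was below every control in tRA 3 and tRA 4 and not in the other tRA mice, and its log2 fold change was -0.12 (SE 0.0935; edgeR FDR 0.821). It was -0.20 without tRA 1, -0.077 without tRA 3 and -0.057 without tRA 4.

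The sensors of the unfolded protein response in the set are Atf6, a factor released from the membrane by cleavage, and Ern1 (IRE1α), the kinase and nuclease that splices the message of Xbp1. Atf6 had 91.6, 94.1, 82.3 and 96.4 CPM in the controls and 72.8, 83.8, 85 and 92.8 CPM in the tRA mice (log2 fold change -0.12, SE 0.0833, and from -0.18 without tRA 4 to -0.064 without tRA 1). Ern1 had 27.1, 38.7, 31.7 and 37.6 CPM in the controls and 25.7, 34, 38.7 and 40.2 CPM in the tRA mice (log2 fold change 0.04, SE 0.151). Both were lowest in tRA 1, and the groups overlapped for both. The receptors that return escaped ER proteins by their KDEL signal, Kdelr1 and Kdelr2, had log2 fold changes of -0.12 (SE 0.0858) and -0.036 (SE 0.071). That of Kdelr1 was -0.068 without control 3 and -0.18 without tRA 1, and that of Kdelr2 turned to 0.0018 without tRA 4 and to 0.023 under an offset for exon length. Kdelr1, the more abundant per kilobase (32.1), had 63.9, 56.9, 70 and 59.7 CPM with vehicle and 65.2, 54.8, 55.7 and 55 CPM with tRA, where tRA 1 was far from the other 3.

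Beyond the 49 genes, 76 other genes of the secretory pathway were listed, 74 of which had enough counts to be tested (Srp54b and Chac1 did not). In edgeR, 0 had an FDR under 0.1, 5 (6.76% of the 74) were lower at an unadjusted p under 0.05, beside 3.55% of all genes tested, and 0 were higher, beside 2.94%. The number at such a p was 15 without tRA 1. It was 3 without control 3, control 4 or tRA 4, and 3 under an offset for exon length. The median log2 fold change of the 74 was -0.04, with 50 negative and 24 positive, where 49.7% of all genes were negative (40 of the 74, beside 42.3% of all genes, when scaled by library size alone). The medians by list ran from -0.074 for oxidative folding and chaperones (14 of 18 negative) and -0.065 for targeting and translocation (6 of 10) through -0.04 for export and retrieval (7 of 11) and -0.031 for the unfolded protein response (8 of 12) to -0.021 for ERAD (8 of 13) and -0.02 for glycosylation (7 of 10). Those of ERAD and glycosylation were above 0 (0.0081 and 0.0075) when scaled by library size alone. The 5 were Mzb1, Krtcap2, Edem2, Ost4 and Fkbp2, and in the first 3 the groups did not overlap (1.63% of all genes tested were lower without overlap). Under an offset for exon length, Ost4 had -0.12 (p 0.129 in edgeR) and Fkbp2 -0.14 (p 0.11), no longer under 0.05. Mzb1, a cochaperone of Hsp90b1 that serves immunoglobulin assembly in B cells and plasma cells, had 87.2, 76.5, 94.4 and 80.6 CPM in the controls and 74.2, 68.6, 64.4 and 65.1 CPM in the tRA mice. Its log2 fold change was -0.31 (SE 0.0803; edgeR p 0.00247, FDR 0.757; FDR from 0.119 to 0.999 over the alternatives). Krtcap2, a small subunit of the oligosaccharyltransferase, had 36.2, 33.1, 32.6 and 31.7 CPM with vehicle and 29.8, 29.8, 26.2 and 27 CPM with tRA (log2 fold change -0.24, SE 0.0768; edgeR FDR 0.757). Edem2, a mannosidase of ERAD, had 96.4, 96.7, 109 and 103 CPM with vehicle and 92.3, 92.4, 89.9 and 86.5 CPM with tRA (log2 fold change -0.17, SE 0.0631; edgeR FDR 0.757).

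Transcription factors of the unfolded protein response lay beside the set as follows. Xbp1, which drives many ER genes in plasma cells, had 103, 109.7, 116 and 125 CPM in the controls and 107, 122, 125 and 106 CPM in the tRA mice, with a log2 fold change of 0.02 (SE 0.0826). Gene counts do not separate its spliced from its unspliced message. Atf4, the effector of the PERK branch, had 499, 459.7, 624 and 442 CPM in the controls and 569.7, 429.9, 291 and 307 CPM in the tRA mice (log2 fold change -0.34, SE 0.2; edgeR FDR 0.792). Ddit3 (CHOP), which Atf4 induces, had 59.8, 65.4, 76.7 and 59.2 CPM in the controls and 74.8, 56, 25.3 and 24.7 CPM in the tRA mice (log2 fold change -0.53, SE 0.311; edgeR FDR 0.792). Both were low in tRA 3 and tRA 4, as Hspa5, Dnajb9 and Herpud1 were, and as ER genes such as Srp14, Sec61b and P4hb were. Both factors were within the control range in tRA 1. Without tRA 1 their log2 fold changes were -0.56 and -0.89, and without tRA 3 they were -0.22 and -0.33 (Ddit3 also -0.33 without tRA 4).

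Several marker lists differed between the same mice. Immediate early genes, which the handling of cells induces, had a summed level of 15091, 14429.8, 13546 and 12147 CPM in control 1 to 4 and of 13799.7, 11002, 5363 and 6773 CPM in tRA 1 to 4. All 8 genes of that list were negative, 3 of them at an unadjusted p under 0.05. Fos, the most abundant over all mice, had means of 3184 and 2216 CPM. Fosb, the most abundant in the controls, had 3319 and 2027 CPM. Cytosolic heat shock genes summed to 9619.5, 7912, 13564 and 9660.4 CPM in the controls and to 6942, 8203, 4704 and 7524 CPM in the tRA mice. All 10 were negative and 8 of them lower at an unadjusted p under 0.05, and the most abundant, Hsp90ab1, had means of 3067 and 2338 CPM. Hspa5, Dnajb9 and Herpud1 were low in the 2 mice with the lowest immediate early levels, tRA 3 and tRA 4. DESeq2 called Jun and Egr1 of the first list and Bag3 of the second at an FDR under 0.1, and edgeR called 0 of either. The part of cell handling in the values of the ER genes was not tested.

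Plasma cells are the spleen cells with the most ER, and 5 of the 9 genes listed as their markers were negative (3 when scaled by library size alone). They summed to 1590.4, 1481, 1407 and 1612 CPM in the controls and to 1378, 1541, 1253 and 1312 CPM in the tRA mice, with overlap. Tnfrsf17 and Jchain were lower at an unadjusted p under 0.05, with log2 fold changes of -0.78 and -0.46. Tnfrsf17 and Sdc1 (-0.17) did not overlap between groups. Jchain was the most abundant over all mice (means 609 and 443 CPM), although Pou2af1 (457 CPM in each group) lay above it with tRA. Jchain had 574, 537, 604 and 722 CPM in the controls and 367, 541, 428 and 436 CPM in the tRA mice. Prdm1, Irf4, Slamf7 and Cd38 had positive values (0.11, 0.0093, 0.22 and 0.14), where Irf4 turned to -0.23 without tRA 1 and Prdm1 went to 0.0033 without control 1, and 0 of the 9 markers were at 0. Immunoglobulin constant genes summed to 17222, 17155, 17584 and 20062 CPM in the controls and 14443, 17208, 16973 and 15771 CPM in the tRA mice. Of these 11 genes, 6 were negative, and Ighm, the most abundant by counts, had means of 10295 and 8870.3 CPM. Igha was the only 1 of the 11 at an unadjusted p under 0.05, and it was higher with tRA (log2 fold change 0.50), while Igkc had -0.18 and groups that did not overlap, although control 2 (4998 CPM) and tRA 2 (4996 CPM) were almost level. The value of Igkc was -0.11 without control 4 and also -0.11 under an offset for exon length. How particular the 9 listed genes are to plasma cells in this mixture was not tested. The part of plasma cells in the values of the ER genes was not tested.

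Markers of some other cell types are given here. T cell markers summed to 1592 ± 179 CPM with vehicle and 1665 ± 32.4 CPM with tRA (SD, n = 4 each), with 2 of 8 negative and Lck the most abundant (531 and 505 CPM). Neutrophil precursor markers summed to 655 ± 80.8 and 350.1 ± 102 CPM, all 8 were negative and 7 were lower at an unadjusted p under 0.05, and Ngp was the most abundant (325 and 171 CPM). DESeq2 called 4 of them at an FDR under 0.1 (Camp, Ngp, Ltf and Lcn2), and edgeR called 0. These markers were lowest in tRA 1 (251 CPM) and highest among tRA mice in tRA 4 (491 CPM). Mature neutrophil markers summed to 699 ± 146 and 618 ± 147 CPM, 3 of 5 were negative, and 2, S100a8 (-0.63) and S100a9 (-0.58), were lower at an unadjusted p under 0.05. Csf3r, the most abundant by counts over all mice, had means of 237 and 282 CPM. S100a9, the most abundant in the controls, had 283 and 189 CPM. Markers of monocytes and macrophages (3 of 6 negative, Lyz2 the most abundant, 587 and 644 CPM), erythroid cells (1 of 6 negative, Hbb-bs, 837 and 1142 CPM) and plasmacytoid dendritic cells (3 of 4 negative, Bst2, 34.3 and 27.4 CPM) overlapped between groups in their sums. In the last list Bst2 was lower (-0.32) and Ccr9 higher (0.45) at an unadjusted p under 0.05. Erythroid markers were uneven, with 2286 CPM in tRA 1 and 3541 CPM in tRA 3 against 623 and 587 CPM in tRA 2 and tRA 4, and from 491 to 2396 CPM in the controls. The paper sequenced total splenocytes, and its account of their isolation has a step that lyses red cells. No marker of the lists given here was at 0 in all 8 mice, and the part of these cells in the values of the ER genes was not tested.

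Gene length moved with the fold changes, in the set and across all genes. Of the 4 ER genes with under 1500 bases of merged exons, 4 were negative (median -0.16), and of the 2888 genes tested in that class 60% were (median -0.081). Between 1500 and 3000 bases, 11 of 14 ER genes were negative (median -0.12), beside 61% of 3711 genes (median -0.052). From 3000 bases on, 19 of 31 were negative (median -0.058), beside 42.5% of 9856 genes (median 0.022). Among all genes under 1500 bases, the median deviation from the control mean was -0.014, -0.042, -0.10 and -0.052 in tRA 1 to 4. After an offset for exon length, an alternative chosen after seeing the data, the median of the 49 genes was -0.061 and that of all genes 0.0013. With it 5 of the 49 (10.2%) were lower at an unadjusted p under 0.05, where 2.67% of all genes were. Of these, 4 were the same genes (Sec61b, Sec61g, Srp9 and P4hb), Atf6 came in and Derl3 went out (log2 fold change -0.33, p 0.0635 in edgeR). Under the offset, the log2 fold change of Sec61b was -0.34, of Sec61g -0.27, of Srp9 -0.29 and of P4hb -0.26, each with an FDR no lower than 0.822 in edgeR. Some other named genes came closer to 0 under it: Ddost had -0.075 (p 0.257), Srp14 -0.091, Creld2 -0.079, Kdelr1 -0.061 and Herpud1 -0.074. Others went further from 0: Sec11c had -0.12, Atf6 -0.16, Pdia3 0.094, Spcs3 0.04 and Xbp1 0.043.

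**Figure D3:**
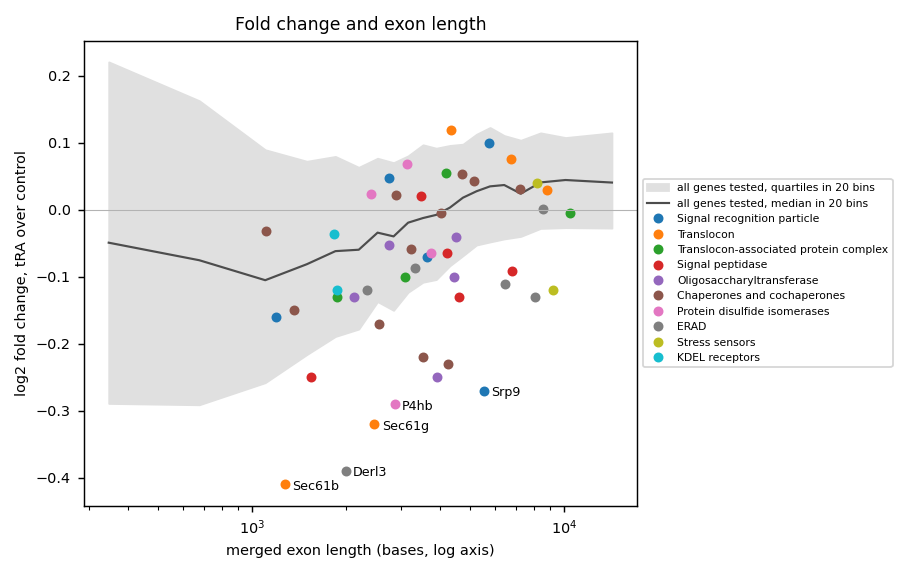
Log2 fold change (tRA over control, vertical axis) against merged exon length in bases (log axis) for the 49 genes, colored by role, over the median and quartiles of all genes tested in 20 bins of length. The median of all genes is below 0 for short genes and above 0 for long ones, and Sec61b, Sec61g, Srp9, P4hb and Derl3 lie below the shaded quartiles.

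Promoter sequences from RefSeq (GRCm38.p6) were at hand for 37 of the 49 genes, as 39 windows from 250 bases before to 50 after the start of the gene. The 12 without an entry were Atf6, Derl1, Hyou1, Kdelr2, Manf, Ostc, Sec11c, Sec61a1, Spcs3, Srp19, Srp68 and Ssr2. The ER stress response element, to which ATF6 binds together with NF-Y, was searched on both strands as CCAAT, 9 bases of any kind and CCACG. It was found in 8 of the 39 windows (20.5%), those of Calr, Canx, Creld2, Derl3, Dnajc3, Hsp90b1, Hspa5 and Pdia6, and in 39 of all 32851 windows (0.119%). ER stress response element II (ATTGG, 1 base of any kind and CCACG) was found for Dnajb11 and Herpud1, or 5.13% of the windows against 0.0365% of all. The letters CCACG alone, which both elements contain, were in 71.8% of the windows and in 32.8% of all. The core of the UPR element, TGACGTGG, was in 0 of the 39 windows and 0.676% of all. Direct repeats of retinoic acid receptor half-sites were in 0 of the 39 windows, at a spacing of 5 (0.0974% of all windows) or of 2 (0.268%). These are matches of letters and not sites shown to be bound. The 49 genes were listed for their roles in the ER, so the shares of ER elements are a description with no test.

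Fold changes of genes with and without these elements are given as a description, and the difference was not tested. The 10 with either ER stress response element had a median log2 fold change of -0.062, with 7 negative and 1, Derl3, at an unadjusted p under 0.05. The 27 with an entry but neither element had a median of -0.10, with 19 negative and 4 (Sec61b, Sec61g, Srp9 and P4hb) at an unadjusted p under 0.05. The 12 without an entry had a median of -0.062. The bases before the RefSeq start are shown for 4 genes that carry an element and differ in their values (Hspa5 at -0.23, Hsp90b1 at -0.005, Derl3 at -0.39 and Herpud1 at -0.12 on the log2 scale), 5′ to 3′ in the direction of the gene, with the element in capitals. An element that reads CGTGG to ATTGG lies on the opposite strand. The windows are chr2:34771840-34772089 (plus strand) for Hspa5, chr10:86705445-86705694 (minus strand) for Hsp90b1, chr10:75893148-75893397 (plus strand) for Derl3 and chr8:94386179-94386428 (plus strand) for Herpud1. The GENCODE starts of Hspa5 (34771970) and Hsp90b1 (86705509) lie inside these windows, so part of the bases shown follows them. The marked element of Hspa5 lies after its GENCODE start. Hsp90b1 has 2 copies, and the other 3 genes have 1 each.
Hspa5: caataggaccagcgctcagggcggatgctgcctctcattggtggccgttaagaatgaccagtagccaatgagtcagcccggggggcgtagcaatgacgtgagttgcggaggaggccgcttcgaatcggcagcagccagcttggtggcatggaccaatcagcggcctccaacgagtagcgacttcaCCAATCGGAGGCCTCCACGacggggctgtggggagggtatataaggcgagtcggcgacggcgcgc
Hsp90b1: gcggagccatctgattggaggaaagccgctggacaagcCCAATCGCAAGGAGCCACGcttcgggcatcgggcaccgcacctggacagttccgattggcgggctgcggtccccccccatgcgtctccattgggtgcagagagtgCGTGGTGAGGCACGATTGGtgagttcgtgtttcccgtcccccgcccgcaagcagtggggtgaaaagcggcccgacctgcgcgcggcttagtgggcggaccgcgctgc
Derl3: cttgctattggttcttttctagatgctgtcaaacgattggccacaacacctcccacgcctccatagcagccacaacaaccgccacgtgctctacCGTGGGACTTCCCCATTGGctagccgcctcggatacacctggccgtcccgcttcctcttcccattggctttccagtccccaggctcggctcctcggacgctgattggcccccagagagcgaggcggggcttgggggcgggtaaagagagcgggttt
Herpud1: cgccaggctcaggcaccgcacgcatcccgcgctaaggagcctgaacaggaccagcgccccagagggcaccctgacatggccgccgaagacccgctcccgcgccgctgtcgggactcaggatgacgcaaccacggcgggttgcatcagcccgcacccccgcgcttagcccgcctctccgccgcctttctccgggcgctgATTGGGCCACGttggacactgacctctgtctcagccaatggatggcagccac

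The exons of 17 of the 49 genes overlap those of another gene in GENCODE M21, which matters for counts whose strand setting is not known. The overlap was 16.3% of the exon length of Spcs1 (with Glt8d1, at a mean of 16.9 CPM), 14.1% for Srp9 (with a pseudogene at 0 CPM), 12.8% for Ssr2, 11.7% for Sec62 and 10.3% for Hsp90b1 (with a pseudogene at 5.14 CPM). Hsp90b1 also shares 2.08% with Gm15344 (7.44 CPM) and 3.3% with Gm25745 (0 CPM). The most expressed neighbours were those of Manf, Dcaf1 (75.6 CPM, 4.14% shared) and Rbm15b (62.7 CPM, 0.397%). Sec61b, Sec61g, P4hb, Derl3 and Hspa5 share no exon bases with another gene. The pseudogenes named after members, Calr-ps and Spcs2-ps, had means of 0.0364 and 0.0725 CPM.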

How the data were processed

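Raw counts per Ensembl gene, 1 column a mouse, were deposited by the authors without normalization, and all 8 columns matched a sample label (0 were left over). The paper's methods name ea-utils and Btrim for trimming, Bowtie2 and Tophat2 for alignment and HTSeq for counting. The submitters' processing notes list STAR 2.5.2b and featureCounts 1.5.1 on GRCm38 instead, and DESeq2 1.26.0, which the paper names too. Which aligner and counter made the table is not known, and the strand setting of the counting is not stated. The authors' own DESeq2 comparison (a mean, log2 fold changes and p-values) was not used.

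Identifiers were matched to symbols, positions and merged exon lengths of GENCODE M21, in which 51633 of the 51826 have an entry and 193 do not. In R 4.3.3 with edgeR 4.0.16, genes were kept by filterByExpr (minimum count 10), scaled by TMM and compared by glmQLFit and glmQLFTest, with p-values adjusted over all genes at an FDR threshold of 0.1. Alternatives used DESeq2 1.42.0 and limma 3.58.1. The fits were tested on simulated data. Tables and figures were made in Python 3.11.15 with numpy 2.4.6, pandas 2.3.3 and matplotlib 3.10.9. No 2 libraries of a group were alike within sampling noise (chi-square test of their counts).

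Genes named in full were members with an unadjusted p under 0.05, members whose groups did not overlap, the member with the highest level per length in each of 10 role groups, Hspa5, Hsp90b1, Derl3, Sdf2l1, Creld2, Herpud1, Sec11c, Ern1 and Atf6, and, of the other secretory genes, Xbp1, Atf4, Ddit3 and those that met both of the first conditions. Other genes that the text singles out, such as Dnajb9, Dad1, Manf, Spcs1, Ost4, Fkbp2 and the single markers, were chosen after their values were seen, as were the length bounds of 1500 and 3000 bases. The members and lists were chosen with earlier results of these data known. Exon lengths merge all transcripts of a gene, so levels per kilobase are approximate.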

Additional observations from a re-analysis of the deposited data

Results flagged for a closer look

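In 5 of 100 groups of 4 mice that were examined, over the named genes and the summed lists, 1 mouse stood far from the other 3, where chance gives about 5. Srp9 in tRA 1 was at 61.3 CPM, and the next highest tRA mouse was at 46.5 CPM. Kdelr1 in tRA 1 was at 65.2 CPM, above 55.7 CPM in the next tRA mouse. Creld2 in tRA 4 was at 32.9 CPM, under 41.8 CPM in the next lowest tRA mouse. The summed level of the oligosaccharyltransferase genes in control 2 was 521 CPM, under 540.3 CPM in the next lowest control. Immunoglobulin constant genes summed to 20062 CPM in control 4, above 17584 CPM in the next control.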

How the results depend on the processing

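With DESeq2, RLE scaling, scaling by library size alone, protein-coding genes only, a looser filter (any count) or a stricter one (10 counts in each library), limma-voom, the replicate block, the exon length offset (chosen after seeing the data) and each of the 8 mice left out in turn, 0 of the 49 genes passed an FDR of 0.1. The number at an unadjusted p under 0.05 was 5, ranged from 4 to 7 over these other settings, and was 8 with the replicate block. With 1 mouse left out, it ran from 1 (without tRA 4) to 11 (without tRA 1). Mice that share only a replicate number correlated at 0.235, -0.0279, -0.0321 and 0.333 over genes, as deviations from their group means. Mice with unlike numbers were not compared, so these values cannot decide whether the numbers pair mice. The median of the 49 genes stayed negative in each setting, from -0.11 (without control 2) to -0.04 (without tRA 4). It was -0.041 with library size alone, which moved the median of all genes to 0.031. For the other secretory genes the number was 5, with 3 under the length offset and from 3 (without control 3, control 4 or tRA 4) to 15 (without tRA 1). Of 459 values of the 27 named genes under these alternatives, 441 kept their sign, 0 passed the threshold and 18 changed sign, all in genes near 0. Those of Hsp90b1 were 0.027 with library size alone and from -0.074 to 0.05 with 1 mouse left out. Sdf2l1 had 0.00013 with library size alone, 0.042 with the length offset and from -0.075 to 0.03 with 1 mouse left out. Leaving out 1 mouse gave from -0.021 to 0.068 for Spcs3, from -0.053 to 0.16 for Ern1 and from -0.024 to 0.07 for Xbp1. The causes were not tested. With 4 mice a group, an exact permutation test cannot go below p = 0.0286. All 49 genes passed the filter on low counts, and how far depth limited the calls was not tested.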
